A study of Rattus norvegicus with 6 samples.

Results

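The skeletal muscle genes counted in dissected rat sciatic nerve were taken as 10 named genes: Acta1, Actn3, Myh1, Myh2, Myh4, Myh7, Ckm, Tnnt3, Mylpf and Mb. They were chosen by name after Acta1 and Actn3 had been seen to vary between replicate libraries, so the differences inside a group are given as a description with no test. Of the 10, 8 had a row among the 30957 genes of the mRNA table, and 7 of those passed the low-count filter, as did 15195 genes in all. Mb did not pass it, and Myh2 and Myh4 were not analysed here. The nerves came from Sprague-Dawley rats of 1 month of age in 3 groups, each sequenced as 2 libraries, a and b, from separate rats. The control group was labelled normal control, while the study's methods describe an operation without the clamp. The D4 and D7 groups were taken 4 and 7 days after the nerve had been crushed with forceps. The nerve was exposed through the superficial gluteus muscle, and whether any muscle tissue was attached to the dissected nerves was not recorded. Total mRNA counts ran from 18727255 to 25350886 per library.

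Skeletal muscle fibers contract when myosin heads of the thick filament pull on actin of the thin filament inside repeating units called sarcomeres, which are anchored at Z-discs. Fast and slow fibers use different versions of the same proteins, so that a myosin heavy chain or a troponin subunit marks the fiber type. A nerve has no muscle fibers of its own, but its trunk runs between muscles and contains smooth muscle in its blood vessels.

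Muscle genes are commonly controlled through short motifs near their start, among them the E-box (CANNTG, bound by myogenic factors such as MyoD), the CArG box (bound by serum response factor) and the MEF2 site. RefSeq (assembly GRCr8, a later build than the Rnor_6.0 of the counts) gave an entry with the 250 bases before the start for 8 of the 10 genes. The 4 shown belong to genes whose counts moved together across the libraries, and capitals mark matches of these motifs or of the TATA element (TATAAA) on either strand.

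Acta1, chr19:68784195-68784444, minus strand: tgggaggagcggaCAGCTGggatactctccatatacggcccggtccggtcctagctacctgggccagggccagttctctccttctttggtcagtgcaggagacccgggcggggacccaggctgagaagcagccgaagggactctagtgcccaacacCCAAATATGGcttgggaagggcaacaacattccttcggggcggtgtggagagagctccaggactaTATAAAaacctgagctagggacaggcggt
Ckm, chr1:88189211-88189460, plus strand: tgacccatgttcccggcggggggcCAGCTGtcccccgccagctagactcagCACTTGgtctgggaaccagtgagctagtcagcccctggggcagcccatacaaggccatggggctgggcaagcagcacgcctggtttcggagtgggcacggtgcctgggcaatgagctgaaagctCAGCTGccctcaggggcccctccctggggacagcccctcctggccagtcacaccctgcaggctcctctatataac
Myh1, chr10:52384662-52384911, plus strand: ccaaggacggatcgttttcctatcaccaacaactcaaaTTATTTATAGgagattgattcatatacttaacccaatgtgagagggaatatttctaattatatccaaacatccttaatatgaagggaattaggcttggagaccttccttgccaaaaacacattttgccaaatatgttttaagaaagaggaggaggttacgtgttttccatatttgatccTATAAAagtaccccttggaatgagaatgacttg
Actn3, chr1:211604402-211604651, minus strand: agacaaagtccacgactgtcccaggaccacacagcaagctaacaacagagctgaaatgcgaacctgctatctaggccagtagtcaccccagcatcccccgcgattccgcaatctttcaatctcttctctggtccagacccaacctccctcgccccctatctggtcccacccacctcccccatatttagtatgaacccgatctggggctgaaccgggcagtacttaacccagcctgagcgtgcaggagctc

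The Acta1 window held an E-box at 237 to 232 bases before the start, a CArG box at 94 to 85 and a TATA element at 29 to 24. The Ckm window held 3 E-boxes and none of the other motifs. The Myh1 window held a MEF2 site at 212 to 203 bases before the start, which overlaps a TATA element on the reverse strand, and a second TATA element at 33 to 28. No match lay in the Actn3 window. Thus the 4 genes did not share one motif in these windows. Among 27457 RefSeq promoter windows of the same length, 65.2% held an E-box, 1.5% a CArG box, 3.07% a MEF2 site and 13.1% a TATA element. A match is a sequence description and not evidence of binding.

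Acta1, which encodes skeletal α-actin of the thin filament (chromosome 19, 56674074 to 56677084, Rnor_6.0), had 21 and 272 counts in control libraries a and b, 650 and 34 in D4 a and b, and 2 and 46 in D7 a and b. As normalized CPM (counts scaled to library size with TMM factors), these were 1.08 and 16.4 in control, 26.7 and 1.26 at D4, and 0.0939 and 2.28 at D7. The highest library was D4 a, yet D4 b lay below control b, so the D4 libraries lay on both sides of control b. The group means were 8.74 ± 10.8 in control, 14.0 ± 18.0 at D4 and 1.18 ± 1.54 at D7 (normalized CPM, SD, n = 2), with an SD above the mean in every group.

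Actn3, which encodes α-actinin-3 of the Z-disc in fast fibers (chromosome 1, 220120533 to 220136470), had 5 and 22 counts in control a and b, 105 and 3 at D4, and 4 and 14 at D7. It was again highest in D4 a, and D4 b was its lowest library after scaling, at 0.111 normalized CPM against 4.31 in D4 a. Tnnt3, which encodes fast skeletal troponin T (chromosome 1, 215666628 to 215683628), had 55 and 150 counts in control, 147 and 89 at D4, and 162 and 142 at D7. Unlike Acta1 and Actn3, Tnnt3 had at least 55 counts in all 6 libraries, and its normalized CPM ran only from 2.83 in control a to 9.04 in control b.

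Myh1, which encodes the fast IIx myosin heavy chain (chromosome 10, 53713938 to 53848347), had 2 and 185 counts in control a and b, 962 and 45 at D4, and 3 and 219 at D7. In normalized CPM the values were 0.103 and 11.2 in control, 39.5 and 1.66 at D4, and 0.141 and 10.8 at D7. Control a and D7 a were thus at or under the level of 3 counts, while the other library of each group reached over 10 CPM. The myosin heavy chain genes lie side by side and are similar in sequence, so reads could be split between them and the Myh1 values are uncertain in that respect. The Myh1 span overlaps that of Myh8 over 29530 bases, and Myh8 was listed at 0 in all 6 libraries.

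Mylpf, which encodes the regulatory light chain of fast myosin (chromosome 1, 198655742 to 198658583), had 5 and 14 counts in control, 76 and 6 at D4, and 3 and 7 at D7. It passed the filter through control b and D4 a only. Ckm, which encodes the muscle creatine kinase that regenerates ATP (chromosome 1, 80321585 to 80331841), had 0 and 73 counts in control, 220 and 14 at D4, and 0 and 29 at D7. Both genes followed the order of Acta1, with D4 a highest and control b next. Mb, which encodes the oxygen store myoglobin (chromosome 7, 118101634 to 118108864), had 0 and 3 counts in control, 6 and 0 at D4, and 0 and 6 at D7, a total of 15 that did not pass the low-count filter.

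Myh7, which encodes the myosin heavy chain of slow fibers and the heart (chromosome 15, 33634422 to 33656089), had a pattern of its own. It had 320 and 160 counts in control a and b, 4 and 4 at D4, and 5 and 1 at D7. In normalized CPM the values were 16.5 and 9.65 in control, 0.164 and 0.148 at D4, and 0.235 and 0.0495 at D7. Both control libraries were far above all 4 libraries after the crush, and the gene was low also in D4 a, where Acta1, Actn3, Myh1, Ckm and Mylpf were highest. Its neighbor Myh6, the α-myosin heavy chain of the heart, had 26 and 10 counts in control and 0 in each of the 4 crushed libraries, at least 8.30-fold lower at D4 and 6.71-fold lower at D7 (against 3 counts per library). The 2 genes are near-identical over long stretches, and how their reads were divided is uncertain.

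**Figure D1:**
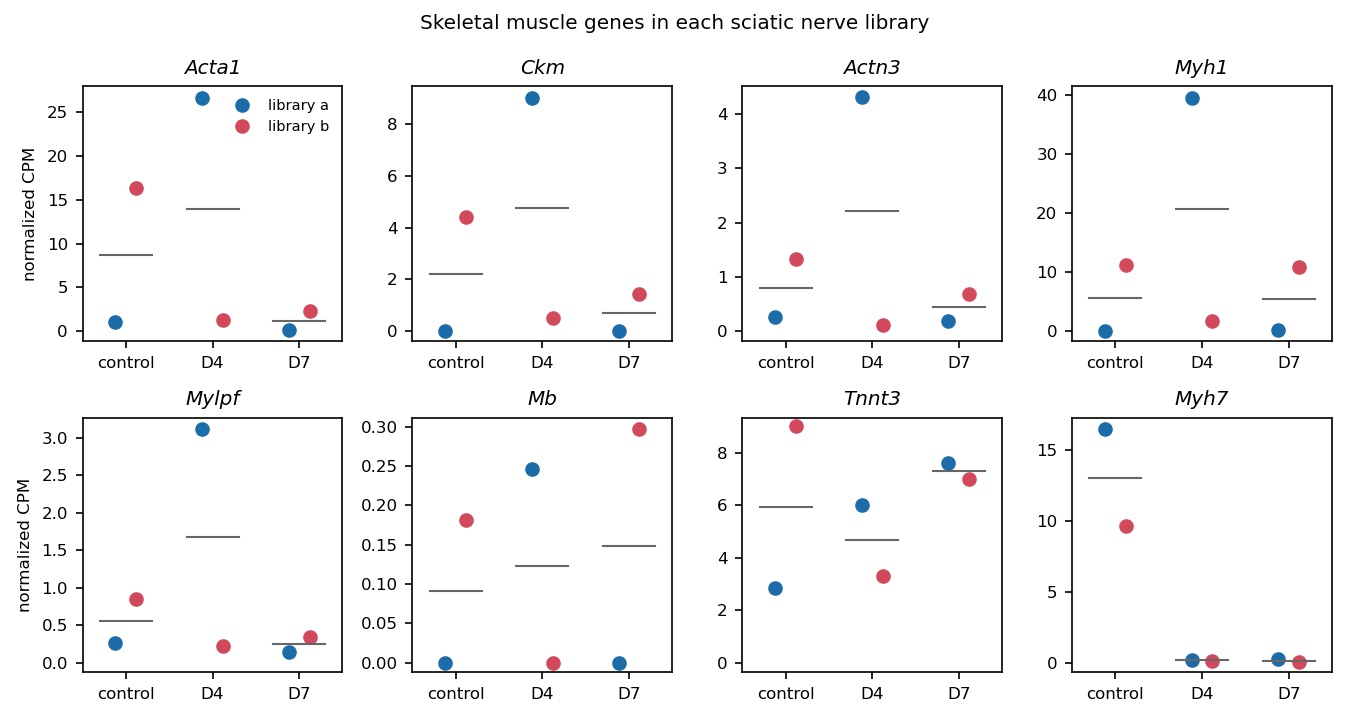
Normalized CPM of the 8 muscle genes with a row, 1 panel per gene, with 1 point for each of the 6 libraries (blue a, red b), a line at each group mean and a vertical axis of its own. Acta1, Actn3, Myh1, Ckm and Mylpf stand highest in D4 a, while Myh7 stands high only in the 2 control libraries.

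The first question was how far the 2 libraries of a group lay apart, since that sets what any comparison of groups can show. In control, library b exceeded library a 15.2-fold for Acta1 (95% interval 9.72 to 24.9, counting error only), 108-fold for Myh1 (29.6 to 901), 5.15-fold for Actn3 (1.90 to 17.4) and 3.28-fold for Mylpf (1.12 to 11.6), and Ckm was at least 28.5-fold higher (against 3 counts). In the opposite direction, Myh7 was 1.71-fold higher in control a (1.41 to 2.08). The 8 genes therefore did not split in one direction within the control group.

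In the D4 group, library a exceeded library b 21.2-fold for Acta1 (95% interval 15.0 to 30.9), 38.9-fold for Actn3 (12.9 to 192), 23.8-fold for Myh1 (17.6 to 32.8), 17.5-fold for Ckm (10.2 to 32.5) and 14.1-fold for Mylpf (6.18 to 39.6). Tnnt3 was 1.84-fold higher (1.40 to 2.42), and Myh7 differed 1.11-fold with an interval of 0.207 to 5.97. The 5 fast-fiber and general muscle genes thus moved together by over 10-fold between rats of the same day, with Tnnt3 far less and Myh7 at a few counts in both. In the D7 group, library b exceeded library a 24.2-fold for Acta1 (6.34 to 206), 76.9-fold for Myh1 (26.0 to 376) 3.69-fold for Actn3 (1.16 to 15.4) and 2.46-fold for Mylpf (0.561 to 14.7), and Ckm was at least 10.2-fold higher. Every D7 gene but Tnnt3 and Myh7 was thus higher in b, though the Mylpf interval included 1. Tnnt3 was 1.08-fold higher in D7 a, with an interval of 0.859 to 1.37, and Myh7, at 5 and 1 counts, was 4.74-fold higher in a (0.531 to 224).

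The spread was set against that of all genes on the log2(normalized CPM + 0.5) scale, which understates folds of low genes. A difference of over 4-fold between the 2 libraries was found for 3 of the 8 genes in control, 5 at D4 and 2 at D7. Over the 15195 tested genes it was found for 95 (0.625%) in control, 26 (0.171%) at D4 and 125 (0.823%) at D7. The median absolute difference of all genes was 0.202, 0.133 and 0.172 log2 units, in the same order. As the genes were chosen for such variation, these shares are a description.

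**Figure D2:**
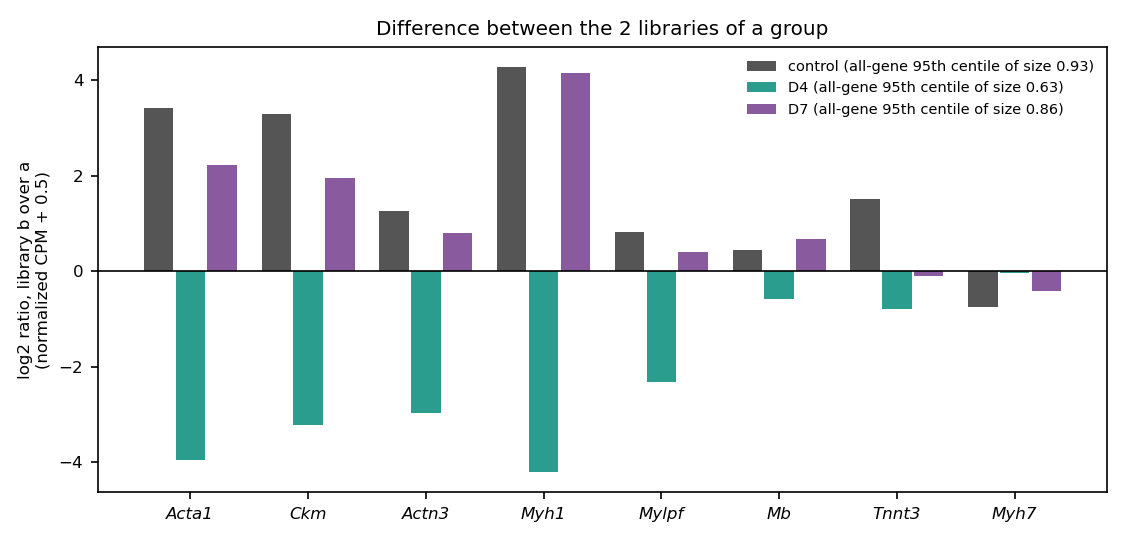
Difference between the 2 libraries of each group, as log2 of b over a on the normalized CPM + 0.5 scale, for the 8 muscle genes, with the 95th centile of the size over all tested genes in the legend (0.933, 0.630 and 0.859). In D4 the bars of Acta1, Actn3, Myh1, Ckm and Mylpf reach beyond 2 units below 0 (higher in a), while in control and D7 all lie above 0 (higher in b) apart from Myh7 and, at D7, Tnnt3.

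D4 a was then compared with D4 b over all genes. At least 4-fold higher in D4 a on the same scale were 21 of the 15195 tested genes (0.138%). They held 5 of the 7 tested members (71.4%) and 5 of 62 other tested muscle genes (8.06%), namely Atp2a1, Pvalb, Ryr1, Tnni2 and Xirp2. The members were chosen after Acta1 and Actn3 had been seen to differ between replicates, and the other list with earlier results known. These shares are therefore a description. Tnni2, which encodes fast troponin I, had 52 counts in D4 a against 4 in D4 b. Atp2a1, the calcium pump of the fast-fiber sarcoplasmic reticulum, had 61 against 4, and Ryr1, its calcium release channel, had 196 against 43. The remaining 11 genes, named after their values were seen, included the matrix metalloproteinases Mmp8 (264 against 9 counts), Mmp12 (343 against 51) and Mmp7 (73 against 5), the matrix protein gene Tnn (1092 against 264) and Myo18b (192 against 30), a myosin of striated muscle. Thus about as many of the 21 genes lay outside the muscle lists as inside them.

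As a share of the library, the 8 genes took 18.1 and 46.9 CPM of all mRNA counts, before TMM scaling, in control a and b, 94.9 and 7.69 at D4, and 8.94 and 24.8 at D7. Without Myh7 and Tnnt3, the remaining 6 took 1.47 (exact 95% Poisson interval 1.01 to 2.06) and 30.3 (27.9 to 32.9) in control, 88.3 (84.5 to 92.3) and 4.02 (3.28 to 4.88) at D4, and 0.599 (0.310 to 1.05) and 17.1 (15.3 to 19.1) at D7. For these 6 genes, 1 library of each group was high and the other low, and the 2 intervals, of counting error only, did not overlap. The 2 genes left out were those least like the other members across these same libraries (r = 0.38 for Tnnt3 and -0.11 for Myh7). This split is thus a description with no test. In such bulk samples, fewer cells of a type and less RNA per cell cannot be told apart.

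The genes did not stand in a constant ratio to Acta1. In the 3 libraries with the most muscle counts, Myh1 had 0.680 counts per Acta1 count in control b, 1.48 in D4 a and 4.76 in D7 b. For Ckm the ratio was 0.268, 0.338 and 0.630, and for Actn3 it was 0.0809, 0.162 and 0.304. Among these 3 libraries each of these ratios, and that of Mylpf, was lowest in control b and highest in D7 b. Other members had another order, with Tnnt3 at 0.551, 0.226 and 3.09, Mb at 0.0110, 0.00923 and 0.130, and Myh7 at 0.588, 0.00615 and 0.0217. The intervals of the Myh1 ratio were apart (0.561 to 0.823, 1.34 to 1.64 and 3.45 to 6.69), while those of Ckm in D4 a (0.289 to 0.395) overlapped those in control b (0.204 to 0.349) and in D7 b (0.382 to 1.03), and those of Actn3 overlapped between D4 a (0.130 to 0.199) and D7 b (0.155 to 0.563). Among Myh1 and Myh7, compared per length as FPKM (fragments per kilobase of transcript, scaled to library size), Myh7 made up 99.8% and 73.7% of the sum in control a and b, 1.33% and 22.3% at D4, and 84.4% and 1.46% at D7. In D7 a both genes were at 5 counts or fewer, so its percentage rests on very few reads.

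On the FPKM scale, which allows levels of different genes to be compared, Myh7 was the highest of the 8 in control a at 2.40, followed by Tnnt3 at 1.81 and Acta1 at 0.650. Acta1 led in control b at 10.1, before Tnnt3 at 5.91 and Ckm at 2.71, and again in D4 a at 19.8, before Ckm at 6.69 and Tnnt3 at 4.75. Tnnt3 led in the other 3 libraries, at 2.59 in D4 b, 5.98 in D7 a and 5.60 in D7 b. The order of levels therefore changed between libraries of the same group, and the group ranges overlapped for every gene except Myh7 against control and Tnnt3 between D7 and D4.

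Across the 6 libraries, the log2 level of each gene was set against the mean of the other members, as a description of likeness over libraries that differ in group and depth. Pearson's r was 0.98 for Acta1, 0.94 for Ckm, 0.91 for Actn3, 0.86 for Mylpf, 0.81 for Myh1 and 0.77 for Mb, but 0.38 for Tnnt3 and -0.11 for Myh7. Of 5483 other mRNAs with a mean of at least 1 CPM and a range of at least 2-fold, the one most like the members was Myl1, the essential light chain of fast myosin, at r = 0.99, with 8 and 50 counts in control, 89 and 16 at D4, and 3 and 18 at D7. It was followed by Tie1, an endothelial receptor, at 0.95 and Cmya5, a muscle protein gene, at 0.94. Next came Dcaf12l1, Lppr5, Grem1, Prrx2, Figf, Ighm and Ass1, with r from 0.93 to 0.89. With a rank correlation in place of r, only 3 of these 10 stayed among the first 10. Of 12464 lncRNAs, the most alike were NONRATT022024.2 (r = 0.99), NONRATT009275.2 (0.98), NONRATT023690.2 (0.97), MSTRG.5888.1 (0.96) and NONRATT028040.2 (0.96). None of these 5 overlapped a member gene, while NONRATT023690.2 overlapped Zdhhc18 and NONRATT028040.2 overlapped Impdh2. Their r rests on few reads, from 1 to 5 counts per library for NONRATT009275.2 to 11 to 32 for MSTRG.5888.1, the most abundant of them. As the highest of many candidates over 6 libraries, these r values are a description.

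The comparison of 4 days after crush with control asked which muscle genes differed between groups beyond this spread. A gene was called at an adjusted p under 0.05 (edgeR's quasi-likelihood test, Benjamini-Hochberg over all 15195 genes) and a fold change of at least 2. Of the 7 tested members, 1 was called lower, Myh7, and 0 were called higher, beside 21.9% of all tested genes called in either direction, 10.7% lower and 11.2% higher. A share of 1 in 7 is near that background. Myh7 had a log2 fold change of -6.34 (0.54 standard error, adjusted p = 0.000442). It had passed the low-count filter only through its control libraries, and a gene that passes in this way has to differ. It was also the only one of the 7 whose D4 and control libraries did not overlap, which held for 76.2% of all tested genes and, in the lower direction, for 39.4%.

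The other 6 did not pass the test at D4. The log2 fold change was 0.68 for Acta1 (standard error 1.60, adjusted p = 0.753), 1.49 for Actn3 (1.46, 0.441), 1.89 for Myh1 (2.02, 0.479), 1.14 for Ckm (1.86, 0.647), 1.61 for Mylpf (1.20, 0.315) and -0.34 for Tnnt3 (0.56, 0.644). Apart from Tnnt3, the standard errors of 1.20 to 2.02 exceeded the 95th centile of all genes, 0.770, whose median was 0.174. The positive values of the 5 genes rested on D4 a, the library in which they were highest. Without it, all 5 were negative, from -2.78 to -1.27 (adjusted p from 0.242 to 0.664). Without control b, they were 2.66 to 9.74 (adjusted p from 0.163 to 0.318). The median log2 fold change of the 7 genes was 1.14, beside -0.04 over all tested genes.

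At 7 days against control, 1 of the 7 was again called lower and 0 higher, beside 18.8% of all genes called, 9.02% lower and 9.83% higher. The value of Myh7 was -6.45 (0.56), nearly that at D4, and its D7 and control libraries did not overlap, as was so for 71.9% of all genes and, in the lower direction, for 34.7%. The other log2 fold changes were -2.88 for Acta1 (1.88, adjusted p = 0.269), -0.82 for Actn3 (1.65, 0.723), -0.02 for Myh1 (2.05, 0.995), -1.60 for Ckm (2.10, 0.578), -1.14 for Mylpf (1.44, 0.562) and 0.31 for Tnnt3 (0.55, 0.685). Both comparisons share the control libraries. Without control b, Acta1, Actn3, Myh1 and Ckm were positive at D7, and the range of the 5 genes was -0.09 to 7.00 (adjusted p from 0.350 to 0.978). The value for Myh1 was 0.27 without TMM scaling, which moved the median of all genes from 0.01 to 0.31. The median of the 7 genes was -1.14, beside 0.01 over all genes.

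Between 7 and 4 days, edgeR called 0 of the 7 genes, 0 of them reached an unadjusted p under 0.05, and DESeq2 called 0, beside 2.18% of all genes called by edgeR. The log2 fold change was -3.57 for Acta1 (standard error 1.88), -2.31 for Actn3 (1.53), -1.91 for Myh1 (2.00), -2.74 for Ckm (2.04), -2.75 for Mylpf (1.31), -0.11 for Myh7 (0.82) and 0.65 for Tnnt3 (0.55), and the adjusted p ranged from 0.259 to 0.952. Tnnt3 alone had both D7 libraries above both D4 libraries, as 31.5% of all genes did (60.6% did not overlap in either direction). Without D4 a, the 5 genes ranged from -0.10 to 1.92. Acta1 was called in 1 alternative chosen after seeing the data, with the letters of the D4 libraries crossed as a replicate block (-3.51, adjusted p = 0.00633), although the letters do not pair rats.

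**Figure D3:**
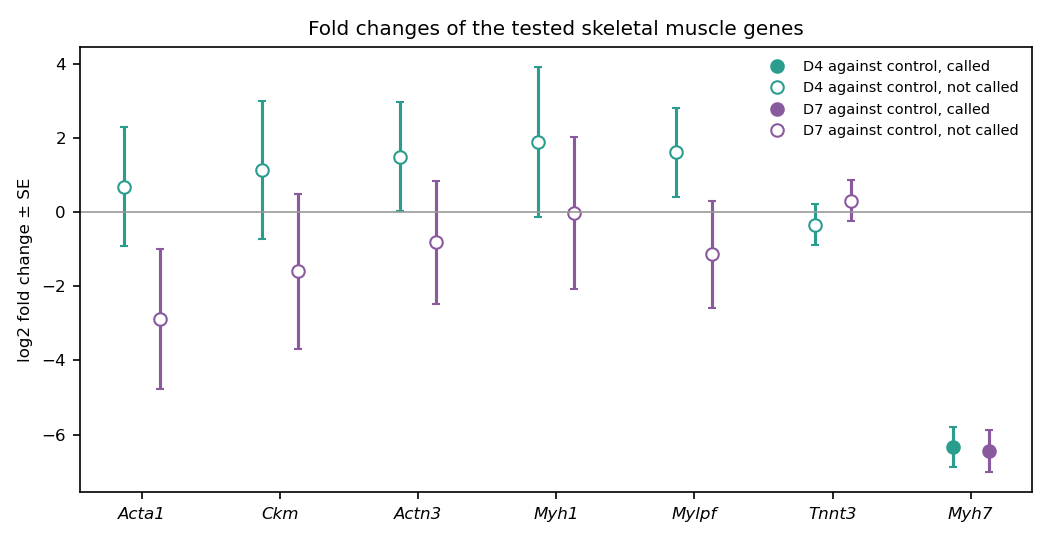
Fitted log2 fold change of the 7 tested muscle genes at D4 and D7 against control, with bars of 1 standard error and filled points for called genes. Only Myh7, near -6, was called, and the bars of Acta1, Actn3, Myh1, Ckm and Mylpf are wide.

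Other skeletal muscle genes, listed by role, gave a wider view. Of 99 listed, 93 had a row, 62 were tested, and 11 were at 0 counts in every library, among them the myogenic factor genes Myod1 and Myf5, the muscle stem cell gene Pax7, and the sarcomere genes Tcap, Myl2 and Myh8. The list summed to 1801 and 2670 normalized CPM in control, 1145 and 1155 at D4, and 1297 and 1390 at D7. Dmd alone was at 707 in control a. The 8 members summed to 21.0 and 53.0, 89.1 and 7.20, and 8.40 and 23.0, in the same order. Which cells made the counts of the list was not tested. At D4, 4 of the 62 were called higher, 14 lower and 44 neither, with a median log2 fold change of -0.86. At D7, 2 were called higher, 13 lower and 47 neither, with a median of -1.10. The share called, 18 of 62 at D4 and 15 of 62 at D7, stands beside 21.9% and 18.8% of all genes. By direction, 10.7% of all genes were called lower and 11.2% higher at D4, and 9.02% and 9.83% at D7. Without control b the counts were 10 and 7, without D4 b the D4 count was 7, and without D7 a the D7 count was 8. Between D7 and D4, 1 of the 62 was called, Dmd, which rose by 1.03 and encodes dystrophin, of which a shorter form is made in Schwann cells. Without D4 a, without D4 b or without D7 a, 0 of the list were called.

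Among thick filament genes, 1 of 8 tested was called higher and 3 lower at D4. Myom2, an M-band protein gene, fell by 3.76 at D4 and 4.22 at D7 (log2, standard error 0.31 and 0.33), while Mybpc2, fast myosin-binding protein C, rose by 3.21 and 2.79. In the thin filament and troponin list, 1 of 8 was higher and 1 lower at D4: Tpm3, a tropomyosin also made outside muscle, rose by 1.08, and Tnni1, slow troponin I, fell by 2.13. Among Z-disc genes, Klhl40, which stabilizes thin filament proteins, rose by 2.16 at D4, whereas Synpo2l fell by 1.76 and Ldb3 by 1.53. The sarcomere lists thus held genes called in each direction at D4. So did all tested genes, of which 11.2% were called higher and 10.7% lower.

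In energy metabolism, 2 of 8 genes were called lower and 0 higher at D4, beside 10.7% and 11.2% of all tested genes. At D7 the shares of all tested genes were 9.02% lower and 9.83% higher. Pfkm, the muscle form of phosphofructokinase, fell by 2.43 at D4 and 1.51 at D7, and Slc2a4, the insulin-responsive glucose transporter, fell by 2.77 at D4. In calcium handling, 1 of 13 was higher and 2 lower at each day. Jsrp1, a protein of the junctional sarcoplasmic reticulum, rose by 2.76 at D4 and 3.17 at D7, and Casq1, the calcium store protein calsequestrin, fell by 1.64 and 1.92. With 2 counts in each control library, Jsrp1 passed the low-count filter only through the crushed libraries and had to differ. Of 14 genes of the muscle membrane, synapse and atrophy, 4 were lower and 0 higher at each day, among them Chrne, an acetylcholine receptor subunit (-1.93 and -1.74), and Trim63, a ubiquitin ligase of muscle atrophy (-1.52 and -2.49). Of the myogenic factors only Mef2c, which is also active in other cell types, was tested and it was not called, at -0.36 and -0.62. Myog had 8 counts and Myf6 had 5, in D7 b alone.

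**Figure D4:**
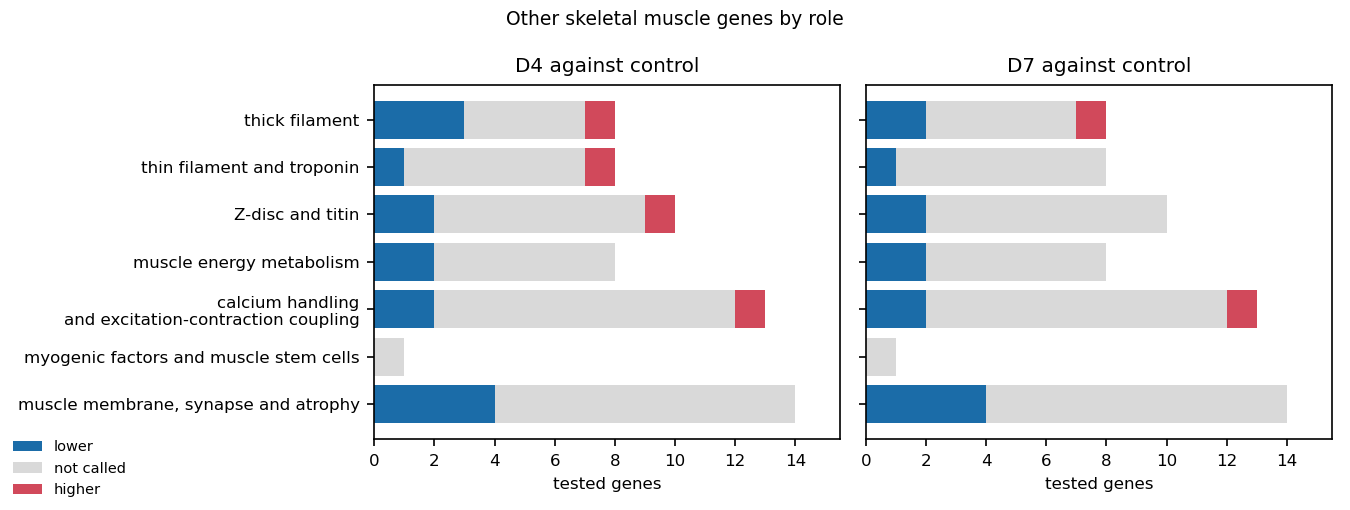
Number of tested genes of 7 lists of other skeletal muscle genes called lower, not called or called higher at D4 and D7 against control. At least as many genes were not called as called in every list, and lower calls outnumbered higher calls in 5 of the 7 lists at D4.

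Markers of other cell types also differed between libraries, in some cases in the direction of the muscle genes and in others not, and their part in the results was not tested. The summed normalized CPM of 10 smooth muscle and pericyte genes was 1492 and 7272 in control a and b, 1010 and 1215 at D4, and 741 and 1526 at D7, and all 10 were highest in control b, the library in which the members were second highest. Acta2, smooth muscle α-actin, had 4672 and 28559 counts in control, 5912 and 7683 at D4, and 2289 and 6379 at D7. D4 a was not above D4 b in that sum, and none of the 10 was 4-fold higher there. Of the 10, Smtn and Rgs5 were called lower at both days, with log2 fold changes of -1.96 and -1.34 at D4, and 0 were called higher. Of all tested genes, 10.7% were called lower and 11.2% higher at D4, and 9.02% and 9.83% at D7.

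The 9 adipocyte genes summed to 1875 and 1363 normalized CPM in control, 458 and 235 at D4, and 22.8 and 567 at D7, with the brown fat gene Ucp1 at 0 throughout. Of the 8 tested, edgeR called 0 at D4 (1 at an unadjusted p under 0.05, and 0 by DESeq2), and Lipe, the hormone-sensitive lipase, was called lower at D7 (-2.21). In D7 the library with more counts of the members, b, was also the one with more adipocyte counts, and so was library a in D4. In control the order was opposite, with more adipocyte counts in a and more counts of the members in b. The 8 cardiac genes summed to 20.2 and 59.5 in control and to between 3.10 and 5.94 in the 4 other libraries, and the atrial gene Myl7 was at 0. Most of that sum was Ryr2, a calcium release channel gene, at 17.0 and 57.6 normalized CPM in control a and b. Of the 3 genes tested, Ryr2 (-4.00 at D4 and -3.76 at D7) and Myh6 were called lower at both days, and Tnnt2, cardiac troponin T, was not called, at 0.40 and 0.15. Myh6, like Myh7, passed the filter only through the control libraries and had to differ. The 8 genes of myelinating Schwann cells, which define the labelled nerve tissue, were present in every library, at 105394 and 71849 in control, 3395 and 3881 at D4, and 17354 and 10826 at D7. All 8 were called lower at D4, among them Prx (-7.42) and Mal (-6.48), and 5 of 8 at D7. The calls of the adipocyte, cardiac and Schwann cell lists stand beside 10.7% of all tested genes called lower at D4 and 9.02% at D7.

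**Figure D5:**
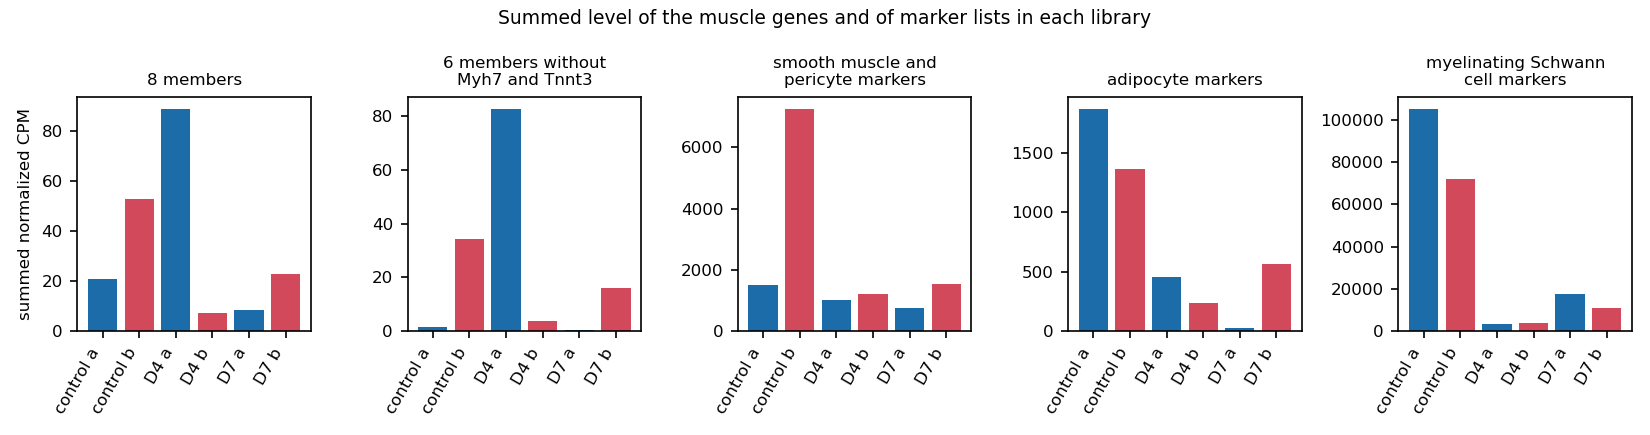
Summed normalized CPM in each of the 6 libraries (blue a, red b) for the 8 muscle genes, the 6 without Myh7 and Tnnt3, and smooth muscle, adipocyte and myelinating Schwann cell markers, each on its own axis from 0. The 6 muscle genes peak in D4 a at 82.9, smooth muscle markers in control b at 7272 and Schwann cell markers in control a at 105394.

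The lncRNA table, which did not choose the members, held 6 transcripts that overlap the span of a member, and 3 of them were tested. At D4, 1 of the 3 was called, beside 10.1% of all 14077 tested lncRNAs (4.87% lower). At D7 edgeR called 0 of the 3, beside 5.79% of all (2 at an unadjusted p under 0.05, and 0 by DESeq2), and between the days 0, beside 0.249% (1 unadjusted, and 1 by DESeq2). NONRATT010416.2 (chromosome 15, 33617240 to 33637916) overlaps Myh7 and Myh6, and had 145 and 106 counts in control, 20 and 24 at D4, and 87 and 70 at D7. Its log2 fold change was -2.66 at D4 (0.26 standard error, adjusted p = 0.00576) and -0.77 at D7 (0.24, adjusted p = 0.125). Without D4 a or without D4 b it was not called at D4. Between the days, NONRATT010416.2 was not called by edgeR (1.90, standard error 0.26, adjusted p = 0.0928). Myh7 itself was as low at D7 as at D4, at 5 counts or fewer. NONRATT001370.2, in the span of Tnnt3, had 1 and 2 counts in control, 2 and 24 at D4, and 29 and 1 at D7, and was not called. It was higher in D4 b and D7 a, the libraries of those groups in which Acta1, Myh1 and Ckm were lower. NONRATT003203.2, in the span of Mylpf, had 7 and 4 counts in control, 7 and 11 at D4, and 19 and 16 at D7, and was not called. Since it is not stated whether counting used the strand, reads of a gene and of an overlapping transcript cannot be told apart.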

How the data were processed

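Total RNA of 6 sciatic nerve libraries was sequenced by the authors after ribosomal RNA removal, mapped with HISAT2 2.0.4 to the rat genome Rnor_6.0, and assembled and counted with StringTie 1.3.0. The authors deposited whole-number counts, not normalized, per gene (mRNA table) and per transcript (lncRNA table), with FPKM values that the authors computed from them. The strand setting was not given in the sources used here.

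Low counts were removed with filterByExpr, TMM factors (0.863 to 1.08) were applied, and groups were tested with edgeR 4.0.16 in R 4.3.3 by the quasi-likelihood test, with all 6 libraries in 1 fit of 3 groups of 2 libraries. p-values were adjusted by Benjamini-Hochberg over all genes tested. A gene was called at an adjusted p under 0.05 and a fold of at least 2. Standard errors were taken as the size of the log2 fold change over the root of its F statistic. DESeq2 1.42.0 was an alternative, together with other filters, scaling, leaving out each library and a replicate block on the library letter, which does not pair rats. The fit was tested on simulated data. Normalized CPM used TMM library sizes. FPKM served only for levels between genes. Intervals are 95%, exact (Clopper-Pearson, or Poisson for shares of the library), and cover counting error only. Where the lower library held 0 counts, the fold was computed against 3 counts and is a lower bound. Promoters came from RefSeq, and figures from Python 3.11.15 with matplotlib 3.10.9.

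The members and the lists of other genes were chosen with earlier results of these data known. Named were all 10 members, and of each other list the called genes of largest and smallest fold change and the most abundant gene, and the 10 mRNAs and 5 lncRNAs most like the members. The rats of a group were separate animals, 2 per group. The p-values weigh a difference between groups against the spread between rats, estimated over all 6 libraries and partly shared across genes.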

Additional observations from a re-analysis of the deposited data

How the results depend on the processing

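Of 196 fold changes of single members under the alternatives, 175 kept their direction and their side of the threshold, 20 reversed and 1 passed it newly, and Myh7 was called lower than control at both days except where at least 10 counts were required in every library, which left 1 member (Tnnt3) and 0 calls at D4 and D7. Of the reversals, 1 was Myh1 at D7, 0.27 without TMM factors, and the others came from leaving out 1 library. Leaving out 1 library gave these log2 ranges at D4: Acta1 -2.78 to 3.68, Actn3 -2.75 to 3.06, Myh1 -1.74 to 7.56, Ckm -2.06 to 9.74, Tnnt3 -0.96 to 0.71 and Mylpf -1.27 to 2.66. At D7 they were Acta1 -6.44 to 0.11, Actn3 -2.01 to 0.75, Myh1 -5.24 to 5.65, Ckm -8.55 to 7.00 and Tnnt3 -0.31 to 1.36. For D7 against D4 they were Actn3 -3.51 to 1.92, Myh1 -7.13 to 1.72, Myh7 -1.56 to 0.57, Ckm -9.69 to 0.45 and Mylpf -3.65 to 0.12. A group left with 1 library was assumed to vary like the others.

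With adjusted p alone, edgeR called 6715 genes at D4, 5705 at D7 and 710 between the days, against 3333, 2863 and 331 with the fold threshold, and DESeq2 called 521 between the days. Without TMM factors, 69.3% of calls at D4 and 70.4% at D7 were higher, against 51.2% and 52.1%. Leaving out 1 library gave 0 to 469 calls between the days, 7 to 22 (D4), 7 to 20 (D7) and 0 to 2 (between days) other muscle genes, and 0 to 1 lncRNAs at the members at D4. Between the days, other muscle genes numbered 2 with no filter and 4 with adjusted p alone, and DESeq2 called 1 lncRNA. With the replicate block, 1, 1 and 0 members and 18, 17 and 1 other muscle genes were called, in the same order of comparisons. Same-letter libraries correlated by 0.02, 0.22 and -0.17, and the crossed pairing, chosen after seeing the data, called 1 member between the days. The cause of these changes was not tested. Levels between genes by counts per kilobase were not run, as the mRNA table gives no gene length. Depth limits Mb, Mylpf and Actn3 most, with 3 counts equal to 0.111 to 0.181 normalized CPM.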
